A study of Mus musculus with 24 samples.

Results

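Potassium channel subunit genes were taken as all genes whose symbol on the array begins with Kcn, leaving out Kcna1, Kcna2 and Kcnj13. The array carried 78 such genes with 117 probes. Of these, 52 had a probe called detected (p under 0.01) on 4 or more of 24 arrays, and the probe with the highest mean stood for the gene. They make up 52 of 11114 genes tested. The other 26 genes had no such probe and were not tested. Those 26 were Kcna4, Kcna7, Kcna10, Kcnd1, Kcnd3, Kcne1, Kcne3, Kcng1, Kcng3, Kcnh4, Kcnh6, Kcnh7, Kcnj1, Kcnj5, Kcnj14, Kcnj15, Kcnk7, Kcnk9, Kcnk15, Kcnk18, Kcnmb1, Kcnn3, Kcnn4, Kcnq1, Kcns3 and Kcnv2.

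RNA from the cerebellum, cortex and striatum of mice at postnatal day 21 was measured on Illumina bead arrays, with 4 arrays for each of 6 groups. In each region, mice labelled Nestin THAP1 KO were set against mice labelled Nestin Con, called KO and control here, and arrays carry the number in their label. THAP1 binds DNA through a zinc finger, and its human gene is mutated in an inherited dystonia. Nestin is a gene of neural progenitors, and its promoter is commonly used to drive Cre recombinase in the developing nervous system. The Cre line, the deleted exons, sex and strain are not stated in these sources, and the design text calls the 4 control mice WT. That text gives 4 mice per genotype for 12 arrays, so arrays of different regions share mice. Which mouse an array came from is not labelled, and p-values measure the spread between arrays taken as independent.

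Potassium channels let potassium ions out of, or into, a cell along their gradient, and so set its resting potential and end its action potentials. The pore is formed by alpha subunits that open with voltage, with calcium or sodium, with G proteins, or at rest. Silent alpha subunits and auxiliary subunits change where a channel goes and how fast it opens. Mixtures of these subunits give neurons of each brain region their own firing patterns.

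Most potassium channel genes differed between regions, and few differences between KO and control stood out. In control mice, 32 of 52 genes differed between cerebellum and cortex by limma at an adjusted p under 0.05, against 45.7% of all genes tested. Of these, 15 were higher and 17 lower in cerebellum, against 23.9 and 21.7% of all genes. Between cerebellum and striatum 34 differed, against 41.2% of all genes, with 20 higher and 14 lower (20.8 and 20.5% of all genes). Between cortex and striatum 26 differed, against 29.1%, with 21 higher and 5 lower in cortex (13.1 and 16.0%). The groups did not overlap for 31, 32 and 22 genes in these comparisons, against 40.9, 35.3 and 27.2% of all genes. Between KO and control, limma called 0 of the 52 genes in cerebellum, where 0.234% of all genes were called. It also called 0 in cortex and 0 in striatum, where 0.540% of all genes were called in each. Averaged over the 3 regions, 1 gene was called, Kcnj3, a subunit of G protein-gated channels, against 2.32% of all genes, and that call was lost in several other fits given with its values. The filter let in genes that are bright in a single region, which had to differ between regions, so the region counts describe these genes and support nothing. Among the 24 genes detected on all 24 arrays, 14, 16 and 14 were called in the 3 region comparisons, in the order above, against 49.8, 44.9 and 32.5% of 7604 genes detected on all arrays.

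Between 47.2 and 54.5% of probes were detected on an array, and arrays of a group correlated at 0.976 to 0.990 over all genes. Of 3 Thap1 probes, 1 was detected on 0 KO arrays in each region and differed by -1.09 in cortex (KO minus control, adjusted p = 0.00151 over probes). A second was detected on all 4 KO arrays in each region and was higher in KO cerebellum by 1.14 (adjusted p = 0.0152). The third was detected on 0, 0 and 1 KO arrays and on 4, 3 and 3 control arrays in cerebellum, cortex and striatum. Where each probe lies in the deleted gene is not given. Markers were set against the labelled regions. Averaged over its list, granule neuron markers had a level of 8.93 in control cerebellum and 5.44 in control cortex. Striatal projection neuron markers, with 6 of 10 measured, averaged 10.4 in control striatum, 9.10 in control cortex and 5.93 in control cerebellum. Purkinje cell markers, with 3 of 7 measured, averaged 9.30 in control cerebellum and 4.74 in control cortex. All levels are log2 of background-corrected intensity with an offset, which understates differences of dim genes, and levels are compared only within a probe. In bulk tissue, fewer cells of a type and less RNA per cell cannot be told apart.

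**Figure D1:**
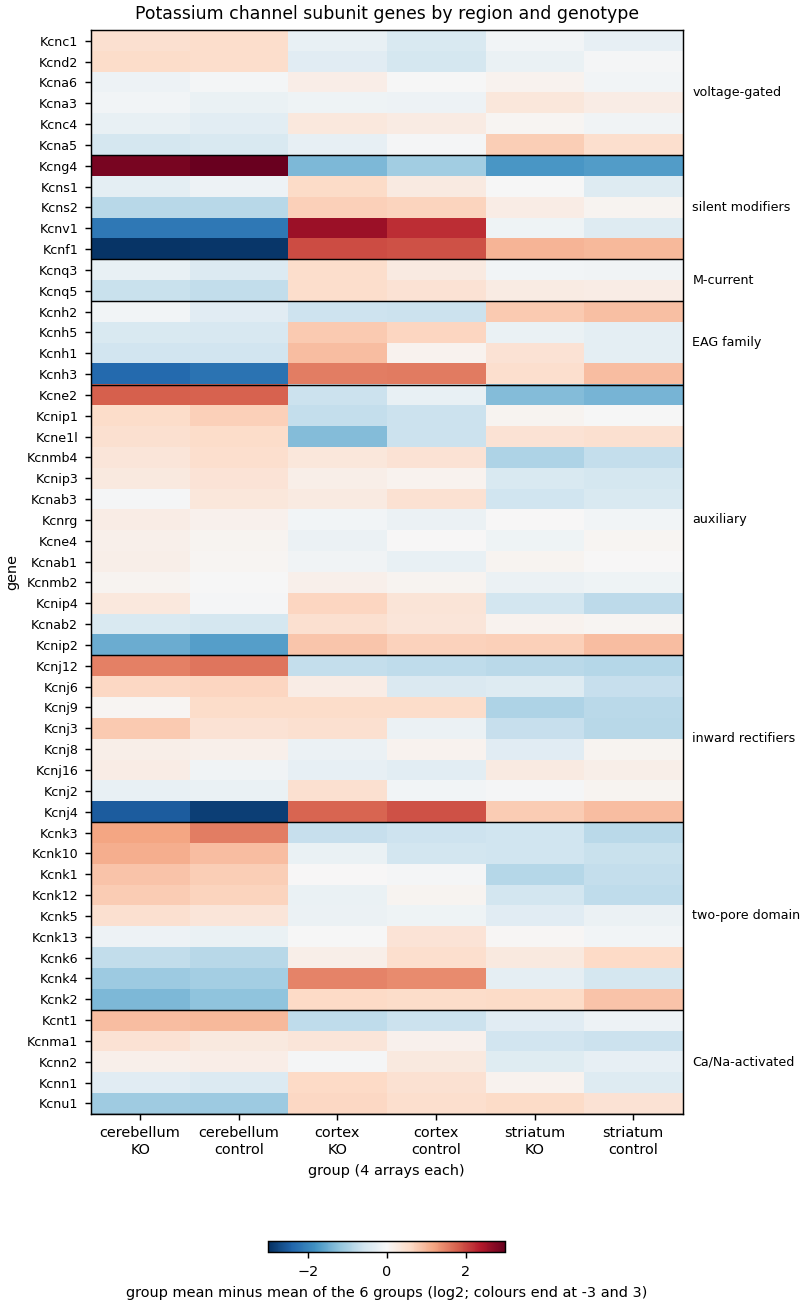
The mean level of each of 52 potassium channel genes in 6 groups of 4 arrays, minus its mean over the 6 groups (log2), with genes sorted by family and by their place in control cerebellum. Kcng4, Kcne2, Kcnj12 and Kcnk3 are red in both cerebellum columns, Kcnf1, Kcnj4, Kcnv1 and Kcnh3 are blue there, and KO and control columns of a region look alike.

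The voltage-gated family, which opens when a membrane is depolarised, had 6 of its 11 genes on the array detected. Kcnc1, a fast delayed rectifier of neurons that fire at high rates, was at 9.97, 9.75, 9.59 and 9.94 in control cerebellum, against 8.82, 8.65, 8.99 and 8.82 in control cortex. All cerebellum arrays lay above all cortex arrays, with a difference of 0.99 (SE 0.125, adjusted p = 1.31e-07). Kcnd2, the pore of the A-type current of dendrites, was higher in cerebellum than in cortex by 1.04 (adjusted p = 2.39e-06) and higher in cerebellum than in striatum by 0.56 (adjusted p = 0.00439). Kcnc4, a relative of Kcnc1 that inactivates fast, ran the other way, with a difference of -0.57 between cerebellum and cortex (adjusted p = 0.00013). Kcna5, a delayed rectifier, was detected on 0 cerebellum arrays and 3 striatum arrays of the controls, and was at least 1.33-fold higher in striatum (adjusted p = 0.00166). Here and below, the adjusted p beside a fold given as at least belongs to the difference of the measured means. Kcna3, a channel of neurons and immune cells, had no called difference, its largest being -0.42 between cerebellum and striatum. Kcna6 varied least, with control means that spanned 0.06.

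The silent modifiers, which form no channel alone but join alpha subunits of the Kcnb family, were detected for 5 of 9 genes. Kcng4 was high in cerebellum, at 9.61, 9.57, 9.81 and 9.75 in control cerebellum, 5.43, 5.83, 6.02 and 5.50 in control cortex and 5.32, 4.98, 4.97 and 4.99 in control striatum. Its cerebellum arrays were far above all others, 15.9-fold over cortex (log2 3.99, SE 0.169, adjusted p = 1.17e-17) and 24.6-fold over striatum (log2 4.62, adjusted p = 4.68e-19). A second probe of Kcng4 was detected on all 4 control cerebellum arrays and on 0 control arrays of cortex and of striatum. KO cerebellum arrays read 9.63, 9.40, 9.74 and 9.52 for Kcng4, which overlapped the controls.

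Kcnf1 ran the opposite way, at 5.02, 4.67, 4.31 and 4.47 in control cerebellum, 9.74, 9.16, 9.37 and 9.45 in control cortex and 8.71, 8.58, 8.65 and 8.03 in control striatum. It was detected on 1 of 4 control cerebellum arrays and on all arrays of the other regions. Cerebellum differed from cortex by -4.81 (SE 0.175, adjusted p = 4.66e-19) and from striatum by -3.88. The cerebellum levels are near background, and with each of those arrays set no lower than its lowest detected signal the differences were -4.47 and -3.53. KO cerebellum arrays were as low, at 4.36, 4.50, 4.72 and 4.79. Kcnv1, a further silent subunit, was detected on 0 cerebellum arrays, and read 8.17, 9.05, 8.86 and 8.61 in control cortex against 5.79, 6.49, 6.19 and 5.83 in control striatum. Cortex was at least 13.5-fold above cerebellum (adjusted p = 2.62e-16), and striatum at least 2.22-fold above cerebellum (adjusted p = 6.01e-08). The difference between cortex and striatum was 2.60 (adjusted p = 1.49e-10). Kcns2 followed the same order with smaller steps, at -1.50 between cerebellum and cortex (adjusted p = 1.57e-07). Kcns1 was detected on 0 control striatum arrays and was at least 1.38-fold higher in cortex (adjusted p = 0.0248), although the groups overlap. Between cortex and striatum, all 5 silent modifiers were called higher in cortex, against 13.1% of all genes, and the second Kcng4 probe was below detection in both.

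The promoters of Kcng4 and Kcnf1 are shown because Kcng4 was high and Kcnf1 low in cerebellum against both other regions. Each is 250 bases upstream of the gene's start, from RefSeq on assembly GRCm38.p6, written 5′ to 3′ on the gene's strand. The Kcng4 promoter is at chr8:119635681-119635930 on the minus strand, and that of Kcnf1 at chr12:17176889-17177138 on the minus strand. Capitals mark GGGCGG, a GC box, on either strand, CANNTG, an E-box, and TNNGGGCA, a form of the motif described for THAP1.
Kcng4 promoter: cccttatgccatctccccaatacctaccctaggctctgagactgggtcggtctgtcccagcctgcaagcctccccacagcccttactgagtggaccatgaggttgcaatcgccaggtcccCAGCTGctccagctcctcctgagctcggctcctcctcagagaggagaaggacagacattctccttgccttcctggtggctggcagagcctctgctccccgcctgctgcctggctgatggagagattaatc
Kcnf1 promoter: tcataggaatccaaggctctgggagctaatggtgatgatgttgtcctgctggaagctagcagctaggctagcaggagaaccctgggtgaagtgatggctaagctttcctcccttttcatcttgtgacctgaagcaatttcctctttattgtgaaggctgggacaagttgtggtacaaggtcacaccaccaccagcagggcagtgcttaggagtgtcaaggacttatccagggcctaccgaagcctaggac
The Kcng4 promoter holds 4 CpG dinucleotides and the Kcnf1 promoter 1, against a median of 8 over the 42 potassium channel promoters found and 6 over all 32851. Promoters were found for 42 of the 52 genes, and 12 of these had more than 1 start, of which the first was used. The 32851 instead hold every listed start, so the 42 are set against promoters counted differently. GGGCGG lay in 50% of the 42 and in 32.7% of all promoters, CANNTG in 66.7% and 66.2%, and TNNGGGCA in 7.14% and 11.9%. The 3 genes with TNNGGGCA were Kcnj8, Kcnk1 and Kcnj12. A match of letters is a description and not a binding site.

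**Figure D2:**
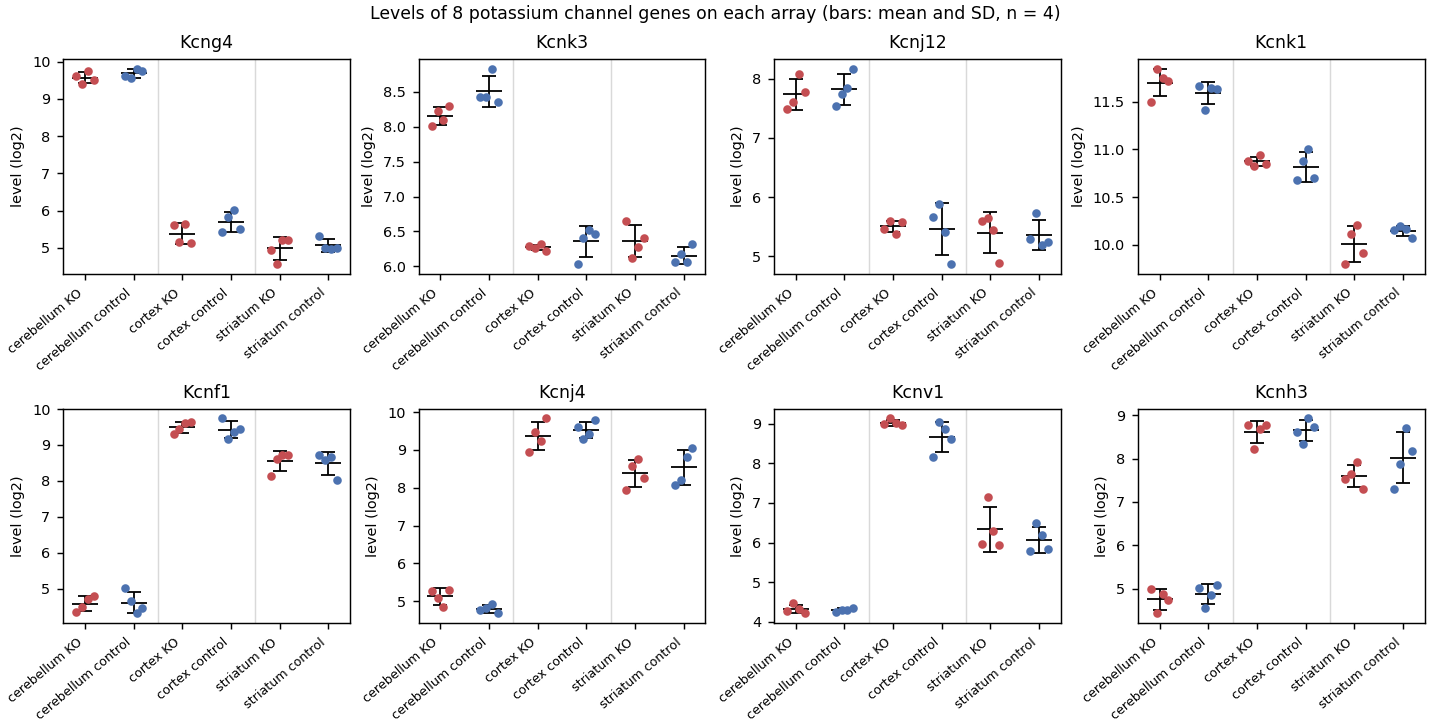
Log2 level of 8 potassium channel genes on each array, by region, with KO left of control, points for arrays, and bars for the mean and SD of 4 arrays. Kcng4, Kcnk3, Kcnj12 and Kcnk1 are highest in cerebellum, while Kcnf1, Kcnj4, Kcnv1 and Kcnh3 are lowest there.

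The M-current family, whose slow current holds back repetitive firing, had 2 of 3 genes detected. Kcnq3 was lower in cerebellum than in cortex, with a difference of -0.67 (adjusted p = 0.00221). Kcnq5 was detected on 0 control cerebellum arrays and was at least 1.50-fold higher in cortex (adjusted p = 4.91e-06) and at least 1.30-fold higher in striatum (adjusted p = 9.47e-05).

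Of the EAG family, named after the ether-a-go-go gene of the fly, 4 of 7 genes were detected. Kcnh3, a forebrain channel, was at 5.02, 4.56, 4.86 and 5.08 in control cerebellum, against 8.61, 8.35, 8.93 and 8.74 in control cortex and 7.31, 7.88, 8.71 and 8.18 in control striatum. It was detected on 2 of 4 control cerebellum arrays, and cerebellum differed from cortex by -3.77 (SE 0.215, adjusted p = 1.1e-14), or -3.66 with that floor. Kcnh5, an ether-a-go-go channel, was detected on 0 control arrays of cerebellum and of striatum, and cortex was at least 1.39-fold above cerebellum (adjusted p = 1.26e-06). Kcnh2, the channel of the fast delayed rectifier of the heart, was highest in striatum, and cortex differed from striatum by -1.53 (SE 0.165, adjusted p = 3.01e-08). Kcnh1, a related channel, showed no called difference, and its 2 probes had opposite signs between cerebellum and cortex, at -0.69 and 0.12.

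Auxiliary subunits, which bind alpha subunits without forming a pore, were detected for 13 of 16 genes. The Kcnip genes encode calcium sensors that bind A-type channels. Kcnip1 was higher in cerebellum than in cortex by 1.35 (adjusted p = 9.96e-08), and Kcnip2 was the reverse, at 5.20, 5.47, 4.95 and 5.21 in control cerebellum against 7.72, 7.37, 7.44 and 7.61 in control cortex. All cerebellum arrays for Kcnip2 were below all cortex arrays (-2.33, SE 0.199, adjusted p = 7.69e-11) and below those of striatum (-2.56, adjusted p = 1.07e-11). Kcnip3 and Kcnip4 were lower in striatum than in cortex, with differences of 0.65 and 1.17 for cortex minus striatum. Kcnmb4, the neuronal beta subunit of the large calcium-activated channel, was higher in cerebellum than in striatum by 1.21 (adjusted p = 4.94e-08). Kcnab3, a further cytoplasmic beta subunit, was higher in cerebellum than in striatum by 0.78 (adjusted p = 0.017). Kcnab2, a cytoplasmic beta subunit of voltage-gated channels, was lower in cerebellum than in cortex, at -0.89 (adjusted p = 1.7e-06). Kcnab1, a relative of Kcnab2, had no called difference by its brightest probe (0.29 between cerebellum and cortex). Its other probes were past the threshold there with opposite signs, at -0.94 (adjusted p = 0.000146 over probes) and 0.40 (adjusted p = 0.0371 over probes).

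Kcne genes encode single-span subunits that slow or alter channel opening. Kcne1l was at 8.99, 8.79, 8.50 and 8.87 in control cerebellum and 8.54, 8.59, 8.97 and 8.76 in control striatum, against 7.88, 7.60, 7.46 and 7.49 in control cortex. Cerebellum was above cortex by 1.18 (adjusted p = 1.2e-06), and cortex below striatum by a difference of -1.11 (adjusted p = 9.35e-06). The Kcne1l promoter is shown because this gene also has the smallest p in the KO cortex. It is at chrX:142306199-142306448 on the minus strand, with 9 CpG dinucleotides.
Kcne1l promoter: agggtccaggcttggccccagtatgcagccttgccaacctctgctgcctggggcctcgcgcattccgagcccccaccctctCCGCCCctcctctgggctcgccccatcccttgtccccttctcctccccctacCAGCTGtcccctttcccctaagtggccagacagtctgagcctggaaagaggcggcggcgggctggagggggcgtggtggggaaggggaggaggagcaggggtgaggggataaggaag
Kcne2, which is known from the choroid plexus, an epithelium that makes cerebrospinal fluid, was at 6.85, 7.98, 7.51 and 7.89 in control cerebellum and 5.83, 5.43, 5.38 and 5.64 in control cortex. It was detected on 0 control striatum arrays, and cerebellum was at least 6.16-fold above striatum (adjusted p = 4.52e-12). The mean level of choroid plexus markers had the same order of regions, at 9.42 in control cerebellum, 7.53 in control cortex and 6.53 in control striatum. Among single markers, Ttr, the transthyretin gene of that epithelium, was 14.00 to 14.31 in control cerebellum, 13.15 to 13.89 in control cortex and 6.58 to 10.11 in control striatum. Folr1, Kl and Aqp1 were also higher in cortex than in striatum, but Clic6 and Otx2 were lower. Clic6 was 7.68 to 8.46 in control cortex and 9.26 to 9.80 in control striatum. Otx2 was 5.68 to 6.03 in control cortex and 6.41 to 7.31 in control striatum. The part of choroid plexus tissue in the Kcne2 differences was not tested.

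**Figure D3:**
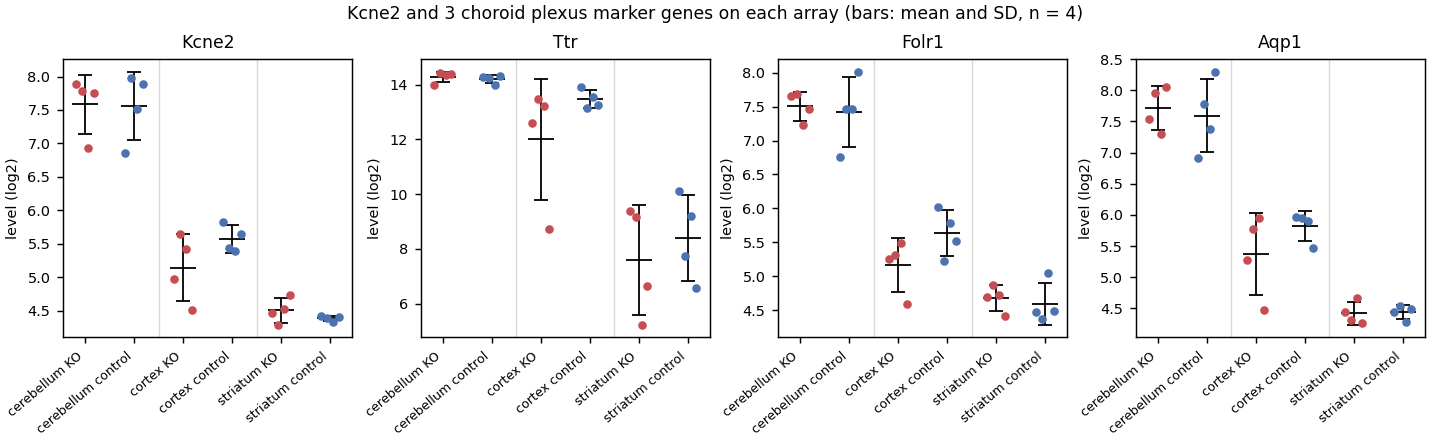
Log2 level of Kcne2 and of the choroid plexus genes Ttr, Folr1 and Aqp1 on each array, with KO left of control in each region and bars for the mean and SD of 4 arrays. All are highest in cerebellum, and 1 KO cortex array is low in all 4 panels.

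Inward rectifiers, which pass current more easily into a cell, were detected for 8 of 12 genes. Kcnj12, a strong inward rectifier, was at 7.54, 7.74, 7.83 and 8.17 in control cerebellum, against 5.67, 5.89, 5.42 and 4.87 in control cortex. All cerebellum arrays lay above all cortex arrays, with a difference of 2.36 (SE 0.203, adjusted p = 8.83e-11). KO cerebellum arrays, at 7.49, 7.61, 8.08 and 7.77, overlapped the controls. Kcnj4, another strong inward rectifier, ran opposite at 4.75, 4.81, 4.93 and 4.67 in control cerebellum, 9.62, 9.29, 9.42 and 9.78 in control cortex and 8.08, 8.21, 8.81 and 9.06 in control striatum. It was detected on 1 of 4 control cerebellum arrays, and cerebellum differed from cortex by -4.74 (SE 0.205, adjusted p = 1.84e-17) and from striatum by -3.75 (adjusted p = 4.14e-15). With the floor at the lowest detected signal these were -4.61 and -3.62. Kcnj12 and Kcnj4 sat at opposite ends, 1 highest and 1 lowest in cerebellum.

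The G protein-gated rectifiers Kcnj3, Kcnj6 and Kcnj9 are subunits of channels that inhibitory transmitters open. All 3 were highest in control cerebellum by their means, although Kcnj9 did not differ between cerebellum and cortex (0.02, adjusted p = 0.982). Kcnj3 in control cerebellum exceeded cortex by 0.61 (adjusted p = 0.00694) and striatum by 1.26 (adjusted p = 1.65e-06). Kcnj6 was detected on 1 of 4 control arrays in each of cortex and striatum, and cerebellum exceeded cortex by 1.09 (adjusted p = 0.00113). The ATP-sensitive pore Kcnj8, the classical rectifier Kcnj2 and Kcnj16, a partner of glial rectifiers, had no called difference between regions.

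The Kcnj4 promoter, at chr15:79505242-79505491 on the minus strand, and the Kcnj3 promoter, at chr2:55435720-55435969 on the plus strand, are shown because Kcnj4 differed most between regions among rectifiers and Kcnj3 was the gene called for KO.
Kcnj4 promoter: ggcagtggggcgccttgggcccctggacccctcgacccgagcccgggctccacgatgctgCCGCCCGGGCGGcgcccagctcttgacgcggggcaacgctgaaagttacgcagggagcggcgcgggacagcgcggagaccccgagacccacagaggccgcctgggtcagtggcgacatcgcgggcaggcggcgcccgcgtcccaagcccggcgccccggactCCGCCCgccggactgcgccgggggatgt
Kcnj3 promoter: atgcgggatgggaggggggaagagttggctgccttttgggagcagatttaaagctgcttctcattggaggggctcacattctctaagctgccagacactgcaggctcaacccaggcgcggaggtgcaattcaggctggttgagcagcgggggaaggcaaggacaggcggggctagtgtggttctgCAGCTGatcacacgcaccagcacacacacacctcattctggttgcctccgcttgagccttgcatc
The Kcnj4 promoter holds 35 CpG dinucleotides and the Kcnj3 promoter 7.

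The two-pore-domain channels, which carry leak currents at rest, were detected for 9 of 13 genes. All 9 differed between cerebellum and cortex, against 45.7% of all genes. Of these, Kcnk4 and Kcnk5 passed the filter through regions where they are brighter, and Kcnk5 and Kcnk12 had groups that overlap. Kcnk3, an acid-sensitive leak channel, was at 8.42, 8.42, 8.83 and 8.35 in control cerebellum, 6.04, 6.41, 6.52 and 6.46 in control cortex and 6.07, 6.17, 6.06 and 6.32 in control striatum. Its cerebellum arrays lay above all others, 4.43-fold over cortex (log2 2.15, SE 0.144, adjusted p = 4.94e-13). Kcnk1, a weakly rectifying leak channel, was higher in cerebellum than in cortex by 0.78 (adjusted p = 1.66e-07) and than in striatum by 1.45 (adjusted p = 6.65e-13). Kcnk10, a stretch-sensitive channel, was higher in cerebellum than in cortex by 1.47, and Kcnk12, a relative of Kcnk13, by 0.58. Kcnk5, an alkaline-activated leak channel, was detected on 0 control cortex arrays, and the bound was 1.13-fold higher in cerebellum. The adjusted p of 0.0296 belongs to the difference of the measured means, 0.49 (SE 0.184). Its other kept probe gave 0.29 and was not past the threshold (adjusted p = 0.294 over probes).

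Kcnk4 and Kcnk2, both stretch-sensitive, were lower in cerebellum. Kcnk4 was detected on 0 control cerebellum arrays, and cortex at 7.09, 6.62, 6.75 and 7.01 was at least 3.85-fold above it (adjusted p = 1.62e-13). Between striatum and cerebellum no fold is given, since striatum was detected on 1 of 4 control arrays. Its other probes were also detected on 0 control cerebellum arrays. Kcnk2 gave -1.77 between cerebellum and cortex (adjusted p = 2.77e-06). Kcnk6, a weak rectifier, gave -1.33 (adjusted p = 4.13e-07), and Kcnk13, a halothane-inhibited channel that microglia carry, gave -0.60 (adjusted p = 0.017). Microglia markers had a mean level of 6.36 in control cerebellum, 8.00 in control cortex and 7.73 in control striatum. Kcnk13 means did not follow these in striatum, at 6.76, 7.36 and 6.87 in the same order. The part of microglia in the Kcnk13 difference was not tested.

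The calcium- and sodium-activated channels, which open as a neuron fires, were detected for 5 of 7 genes. Kcnt1, a sodium-activated channel, was higher in cerebellum than in cortex by 1.62 (adjusted p = 3.3e-09) and higher than in striatum by 1.13. Kcnma1, the pore of the large calcium-activated channel, was lower in striatum than in cortex, with cortex above by 0.77 (adjusted p = 0.000613). Kcnn1, a small calcium-activated channel, was highest in cortex, above cerebellum by a difference of -0.87 for cerebellum minus cortex (adjusted p = 4.95e-05). Kcnu1, known from sperm, gave -1.60 between cerebellum and cortex (adjusted p = 1.52e-08). Kcnn2, a close relative of Kcnn1, had no called difference.

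Of the 52 genes, 41 were called in at least 1 region comparison (78.8%, against 60.5% of all genes). The 11 others were Kcna3, Kcna6, Kcnh1, Kcnab1, Kcnmb2, Kcne4, Kcnrg, Kcnj2, Kcnj8, Kcnj16 and Kcnn2. Kcnmb2, a beta subunit that inactivates the large calcium-activated channel, Kcne4, a single-span subunit, and Kcnrg, a soluble regulator of voltage-gated channels, were near background, each detected on 0 to 3 control arrays of a region. More than 1 probe was kept for 13 genes. Of their 24 called region differences, 2 had another kept probe of opposite sign, Kcng4 between cortex and striatum and Kcnk4 between cerebellum and striatum, and in each case that probe was detected on 0 control arrays of both regions. By control means, 23 genes were highest in cerebellum, 21 in cortex and 8 in striatum.

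The order of regions was also read in KO arrays. The order of the 3 region means was the same in KO as in control for 42 of 52 genes, and the 10 exceptions were Kcnip2, Kcnn2, Kcnj9, Kcnj2, Kcna3, Kcna6, Kcns1, Kcnk3, Kcnk2 and Kcnk13. The difference of the KO effect between regions was called for 0 of 52 genes by limma in each of 3 comparisons, against 0.00900% of all genes. At an unadjusted p under 0.05 there were 1 gene for cerebellum minus cortex, 1 for cerebellum minus striatum and 3 for cortex minus striatum, against 3.90, 3.59 and 4.34% of all genes.

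**Figure D4:**
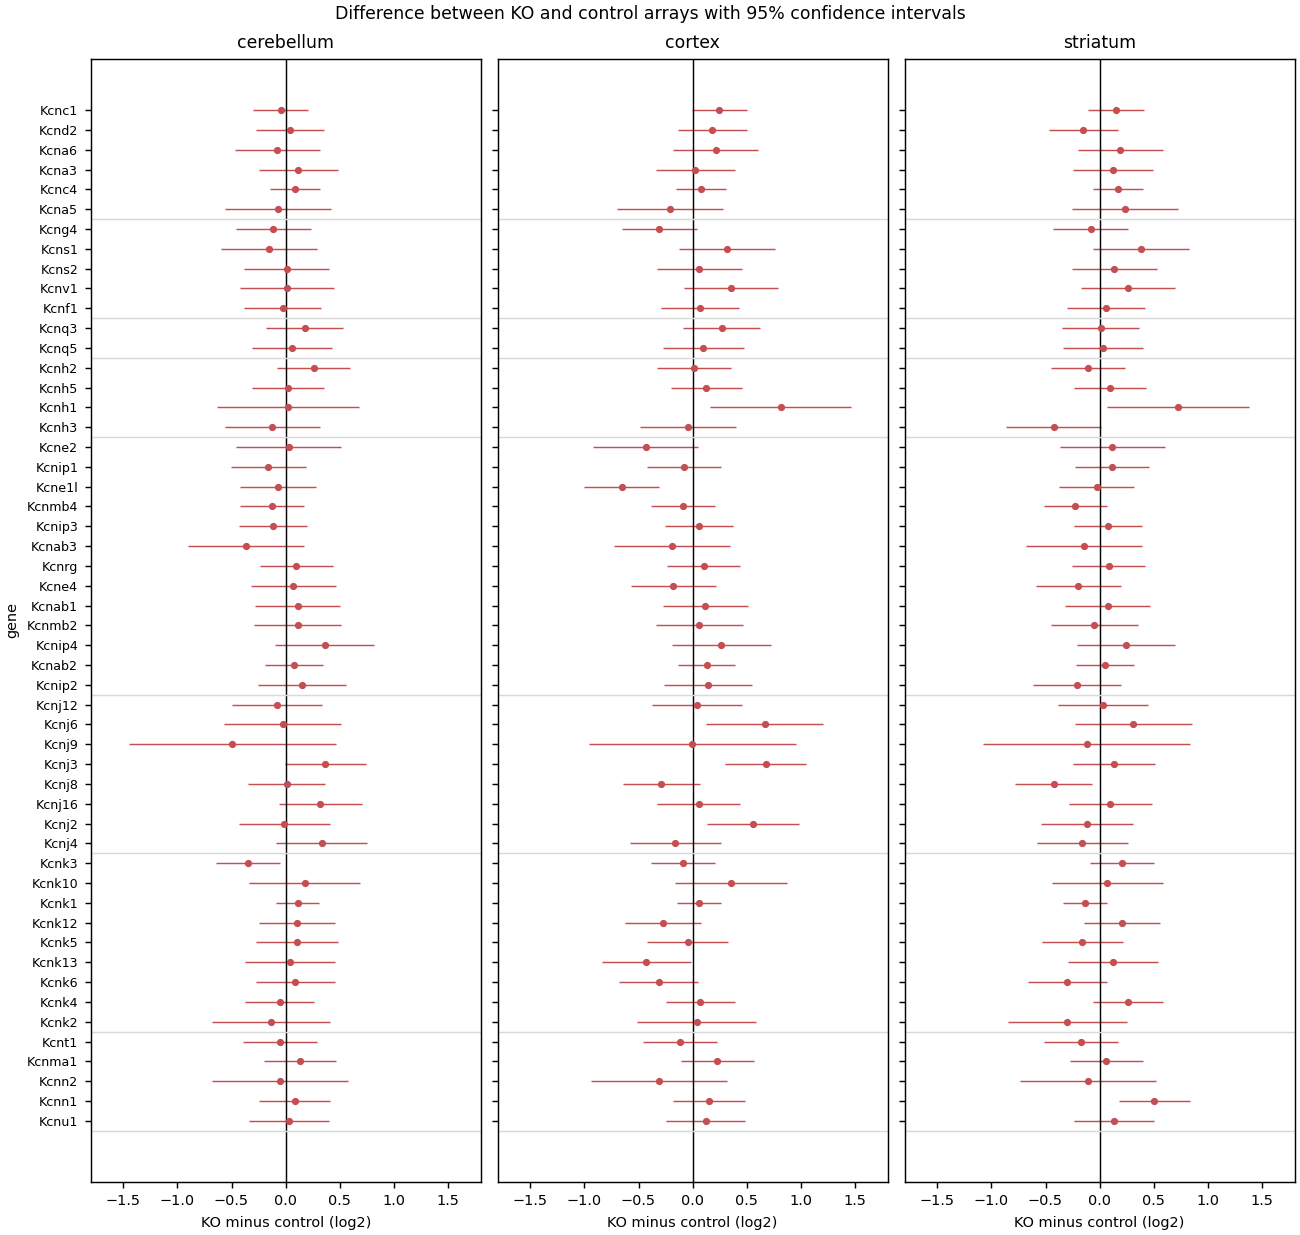
KO minus control (log2) with 95% confidence intervals for 52 potassium channel genes in each region, 4 arrays a group. Most points lie near the line at 0, and the intervals of Kcnh1, Kcnj3, Kcnj6, Kcnj2, Kcne1l and Kcnk13 in cortex do not cross it.

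Against control, KO shifted the median of the 52 genes by 0.02 for cerebellum, 0.06 for cortex and 0.07 for striatum, against 0.01, 0.01 and 0.02 over all genes. At an unadjusted p under 0.05, limma had 1 gene in cerebellum, against 5.39% of all genes. Cortex had 6 against 10.6%, striatum 3 against 7.39%, and the mean over regions 7 against 14.4%. The 95% interval of the difference lay within 1 log2 unit for 51 genes of cerebellum, 48 of cortex and 50 of striatum. It lay within 0.5 for 30, 24 and 22 of them. The number of arrays limits this precision. The interval counts include genes detected on 0 KO and 0 control arrays of the region, whose values sit near background. These were Kcna5, Kcnh5, Kcnk4, Kcnq5 and Kcnv1 in cerebellum, Kcnk5 in cortex, and Kcne2, Kcnh5 and Kcnmb2 in striatum. Narrow intervals of these genes do not bound a change.

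Kcnj3 had the smallest p of the averaged effect. In cortex it was at 6.45, 5.98, 6.67 and 6.49 in KO against 5.77, 6.02, 5.66 and 5.45 in control. In cerebellum it was at 6.49, 6.66, 7.08 and 6.57 in KO against 6.10, 6.54, 6.22 and 6.49 in control. The groups overlap in each of these regions. In striatum it was at 5.09, 5.29, 5.35 and 5.09 in KO against 5.51, 4.83, 4.85 and 5.10 in control, with overlap. KO minus control was 0.67 for cortex (SE 0.183, adjusted p = 0.088). It was 0.36 for cerebellum (adjusted p = 0.937) and 0.13 for striatum (adjusted p = 0.946). The mean over the regions was 0.39 (SE 0.106, adjusted p = 0.0455), past the threshold in limma over all genes. The call was lost with median scaling (adjusted p = 0.127), with no filter on detection (adjusted p = 0.123), and in 16 of 24 fits that left out 1 array. It was also lost (0.39, SE 0.115, adjusted p = 0.0903) with arrays whose numbers differ by 8 or 16 as a random block, a fit chosen after the data were seen. This mean treats arrays of different regions as independent although they share mice, so its p is too small if arrays from 1 mouse are alike.

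Among the other G protein-gated subunits in cortex, Kcnj6 was at 5.58, 5.35, 5.68 and 5.82 in KO against 5.25, 4.96, 4.73 and 4.82 in control, with all KO arrays above all controls. Its difference of 0.66 was not called (adjusted p = 0.326), it was detected on 4 KO arrays and 1 control array, and its other probe gave 0.12. The classical rectifier Kcnj2 gave 0.55 (adjusted p = 0.275) with detection on 4 KO and 2 control arrays. Kcnj9 gave -0.49 in cerebellum (adjusted p = 0.998), with a 95% interval of -1.45 to 0.47.

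Kcne1l was at 7.18, 6.94, 6.66 and 7.04 in KO cortex against 7.88, 7.60, 7.46 and 7.49 in control cortex, with no overlap. Its difference was -0.65 (SE 0.169, adjusted p = 0.0729) in cortex and -0.25 on average (adjusted p = 0.2). Leaving out striatum KO array 7, an array where this gene is low, gave the same difference in cortex with an adjusted p of 0.022. That was the only call among 24 fits that left out 1 array, where adjusted p reached 0.246. Of 10 other alternative fits, 1 called Kcne1l in cortex, with adjusted p from 0.0262 to 0.358. Kcne2, beside it in the family, gave -0.43 in cortex (adjusted p = 0.556), and KO cortex array 16 was lowest for it at 4.51. The same array had the lowest Ttr, at 8.75, where the other KO cortex arrays were 12.61 to 13.46. Choroid plexus markers were lower in KO cortex for 6 of 6 genes, with none called. Their mean level was 6.95 (SD 0.80), against 7.53 in control cortex (SD 0.26). KO cortex array 16 was the lowest at 5.78, and the highest KO cortex array was at 7.49. The part of choroid plexus in the Kcne2 value was not tested.

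Other genes with no overlap were Kcnk3 in cerebellum, Kcnn1 and Kcnj8 in striatum, and Kcnj2, Kcnk13 and Kcnk6 in cortex. Kcnj2 was at 5.54, 5.40, 5.80 and 5.51 in KO cortex against 5.22, 5.07, 5.21 and 4.53 in control cortex. Kcnk3 was at 8.00, 8.22, 8.10 and 8.29 in KO cerebellum against 8.42, 8.42, 8.83 and 8.35 in control cerebellum, a difference of -0.35 (adjusted p = 0.788). Kcnn1 was at 6.41, 6.25, 6.50 and 6.71 in KO striatum against 6.01, 5.63, 5.97 and 6.25 in control striatum, a difference of 0.51 (SE 0.161, adjusted p = 0.25). The lowest KO and highest control arrays of Kcnn1 were almost equal. Kcnj8 gave -0.42 in striatum (adjusted p = 0.524), and in cortex Kcnk13 gave -0.43 (adjusted p = 0.453) and Kcnk6 -0.31 (adjusted p = 0.571). KO and control did not overlap for 1 gene in cerebellum (2.77% of all genes). They did not overlap for 5 in cortex (8.18%) and for 2 in striatum (3.79%). Kcnh1 gave 0.81 in cortex and 0.72 in striatum (adjusted p = 0.321 and 0.61), but its other probe gave 0.15 and -0.23. Kcns1 was detected on 3 KO and 0 control striatum arrays, but its groups overlap and its difference of 0.38 was not called (adjusted p = 0.762). Kcnh3 in striatum gave -0.42, and Kcnj16, Kcnj4 and Kcnip4 in cerebellum gave 0.32, 0.33 and 0.36, with none called.

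Markers of cells that carry these genes were read beside them. Granule neuron markers had a mean level of 8.67 in KO cerebellum and 8.93 in control cerebellum, with 7 of 7 below 0 (median -0.20) and none called, beside Kcnk3, a leak channel of granule neurons. Microglia markers had a mean level of 7.78 in KO cortex and 8.00 in control cortex, with 6 of 7 below 0 and none called, beside Kcnk13. In KO striatum 5 of 7 were below 0, where Kcnk13 gave 0.12. In KO cerebellum 2 of 7 were below 0, and Kcnk13 gave 0.04. Endothelial and mural markers had 6.93 in KO striatum and 7.10 in control striatum, with 6 of 7 below 0 and none called, beside Kcnj8, a gene of mural cells. In KO cortex 4 of 7 were below 0 (median -0.02), and Kcnj8 gave -0.29. In KO cerebellum 3 of 7 were below 0, and Kcnj8 gave 0.01. The part of these cell types in the values was not tested.

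**Figure D5:**
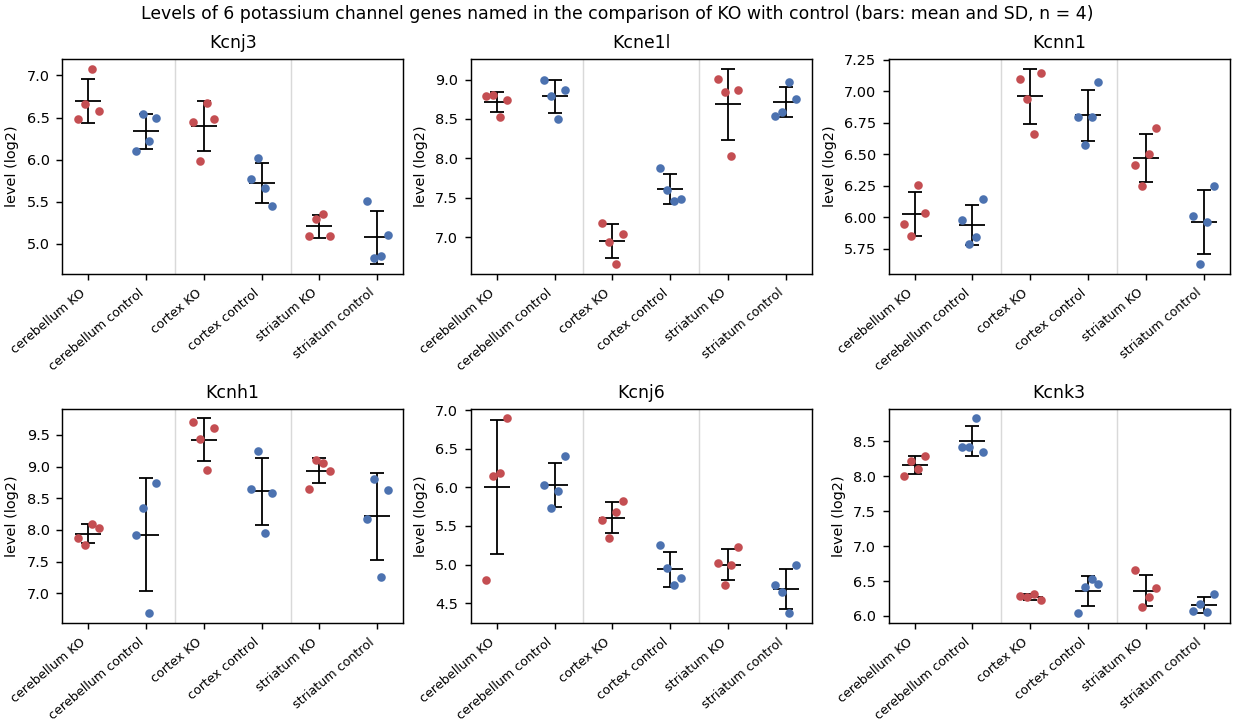
Log2 level of 6 potassium channel genes on each array, with KO left of control in each region, points for arrays and bars for the mean and SD of 4 arrays. Kcnj3 and Kcnj6 have higher and Kcne1l lower points in KO cortex, and Kcnk3 is lower in KO cerebellum.

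Kcnu1 lies on chromosome 8 with 5 protein-coding genes between it and Thap1, and its KO minus control differences were 0.03, 0.12 and 0.13 in cerebellum, cortex and striatum. Of 24 listed partners of these channels that are not Kcn genes, such as Dpp6 and Dpp10, which help A-type channels reach the membrane, 18 were measured and 0 were called by limma in each KO comparison. The largest averaged value was that of Dpp10, at 0.26 (adjusted p = 0.0891). Beside these results, markers of mature oligodendrocytes were lower in KO: 6 of 10 were called in cortex and 8 of 10 in striatum, with mean levels of 10.4 and 10.5 in KO against 11.0 and 11.3 in control, while 0 of 10 were called in cerebellum. Their part in the potassium channel values was not tested.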

How the data were processed

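Messenger RNA was measured on 24 Illumina bead arrays in 6 groups of 4, grouped by the labels' titles. The authors deposited a linear bead intensity per probe, without normalization, and a detection p-value per probe and array, per the file headers. BeadStudio made the values, per the submitters' processing notes. The authors' processed intensity table, whose background subtraction and normalization are unknown, was an alternative, floored at 16 before log2.

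With limma 3.58.1 in R 4.3.3, the raw intensities were background-corrected using the detection p-values, given an offset of 16, quantile normalized and taken to log2. Of 25697 probes, 14994 were detected on 4 or more arrays. The brightest probe stood for a gene, which left 11114 genes. One linear model of 6 group means was fitted to all 24 arrays (lmFit, eBayes with intensity trend; two-sided; Benjamini-Hochberg over all genes; threshold 0.05). In a called difference, a group with 0 detected arrays gives a bound in place of a fold. It sets the bright group's mean against the dim arrays' average of the lowest detected signal, or of the probe itself where that is higher. The adjusted p beside a bound is that of the difference of the measured means, not of the bound. Symbols follow the platform table, updated through the RefSeq annotation of GRCm38.p6 (8 symbols). The fit was tested on simulated data.

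Named genes were those called for KO, the 5 smallest p-values in each KO comparison, up to 8 non-overlapping called region differences in each direction, the most and least variable genes of each family, genes whose probes disagree and genes undetected in a region. The members and lists were chosen with earlier results of these data known. Alternatives covered background, scaling, the authors' values, filters, probes, samples fitted, array weights, the offset, leaving out each array and, chosen after the data were seen, a random block by array number.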

Additional observations from a re-analysis of the deposited data

Results flagged for a closer look

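Of 186 groups of 4 arrays tested over 31 potassium channel genes, 9 held an array far from the other 3, and chance flags about 1 in 20 groups. In KO groups, Kcne1l was 8.024 on striatum array 7, where the other arrays were at 8.844 to 9.013. Kcne2 was 6.926 on KO cerebellum array 23, against 7.759 to 7.882. Kcnj16 was 5.975 on KO cerebellum array 22, against 6.663 to 6.743.

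In control groups, Kcnk3 was 8.827 on cerebellum array 19, above the others at 8.346 to 8.425, and Kcnk6 was 5.189 on the same array, below the others at 5.609 to 5.667. Kcnk1 was 11.42 on control cerebellum array 18, and Kcnk2 was 5.869 on control cerebellum array 20. Kcnk10 was 5.827 on control cortex array 12, above the others at 4.807 to 4.9. Kcng4 was 5.321 on control striatum array 1, above the others at 4.969 to 4.99.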

How the results depend on the processing

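The number of potassium channel genes called for KO in cortex was 0, and became 2 with the authors' processed values (Kcnj3 at 0.88, adjusted p = 0.037, and Kcnj2 at 0.48, adjusted p = 0.0217) and 2 with array weights (Kcnj3 at 0.73, adjusted p = 0.0162, and Kcne1l at -0.66, adjusted p = 0.0262). It ran from 0 to 1 when single arrays were left out. The count for the mean over regions was 1, became 0 with median scaling, 0 with no filter on detection and 0 with the replicate block below, and ran from 0 to 2 with single arrays left out. There the Kcnj3 call held in 8 of 24 fits, with adjusted p from 0.0203 to 0.0974. The causes were not tested. The KO counts for cerebellum and striatum and the 3 differences between regions were 0 in every alternative. Region counts ran over 31 to 33, 31 to 35 and 22 to 28 with single arrays left out. Kcne2 between cortex and striatum lost its call with the authors' values (adjusted p = 0.16). None of the named differences turned direction. Median scaling shifted the median of all genes by -0.10 in KO cerebellum and 0.13 in KO cortex, and the share of called genes that were higher was 26.3% in KO cerebellum (46.2% with quantile normalization) and 66.7% in KO cortex (40%).

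Array numbers are not shared between groups, and the labels do not say which arrays share a mouse. A replicate block chosen after the data were seen took arrays 8 or 16 apart in number as a random block (8 blocks of 3, estimated correlation 0.0845). It gave an adjusted p of 0.0903 for the Kcnj3 mean over regions, 0 calls in the other KO comparisons, and 32, 34 and 27 region calls. Over all genes, calls for the mean over regions were 158 with this block and 258 without. Probes near background, a few arrays per group and unknown animals limit small differences.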

Other observations

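The lowest array of Kcnj9 was the second by number in each of the 6 groups, at 4.60, 4.80, 5.46, 5.23, 4.36 and 4.27 on arrays 22, 18, 14, 10, 6 and 2. The numbers of KO arrays and of control arrays among these are 8 apart. Of the 52 genes, Kcnj9 was the only 1 with its lowest array at the same place in all 6 groups. Kcnh1 was low on control arrays 19, 11 and 3, at 6.68, 7.95 and 7.25. In KO, Kcnh1 was lowest on arrays 22, 15 and 5, which do not share a place. Over 11114 genes, deviations from group means of arrays whose numbers differ by 8 or 16 correlated with a median of 0.17 over 24 pairs (-0.01 to 0.48), against -0.06 over 72 other pairs (-0.38 to 0.33). Deviations within a group cancel out, so higher values for pairs 8 or 16 apart force lower values for the other pairs. The other pairs are thus not a separate baseline. The labels do not say whether arrays 8 or 16 apart share a mouse. These values were looked for after the data were seen.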
